A study of Cucumis sativus with 4 samples.

Results

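The genes described here are the steady, well-expressed genes of cucumber (Cucumis sativus) axillary buds: genes with a mean normalised value of at least 50 over 4 RNA-seq libraries whose largest value was at most 15% above the smallest. The percentage by which the largest value lay above the smallest is called the spread. The rule found 242 such genes among the 17770 genes of the deposited table, 1.36% of them, and among the 5057 genes (28.5%) that reached the mean of 50, here called well-expressed, 4.79%. All 4 values of each gene chose the members. Their steadiness is therefore a description of the choice, and no test is given on it. Lateral buds were taken from the same node of plants 2 months old, raised in a growth chamber and moved to a greenhouse at the stage of a pair of true leaves. WT 1 and WT 2 are the libraries with the genotype label wild type. CsBRC1-RNAi 1 and CsBRC1-RNAi 2 come from transgenic plants with an RNAi construct against CsBRC1, built from 585 bp of its coding sequence. The inbred line R1461 was transformed, with Agrobacterium GV3101. The protocol also describes an empty PFGC-1008 vector as transformation control, while both control libraries are labelled wild type. The labels give neither separate plants, pools nor transgenic lines for the libraries of a group, so the spread between them may be technical.

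CsBRC1 is a TCP transcription factor of the BRANCHED1 type, known in flowering plants as a brake on the growth of axillary buds. An axillary bud is a small shoot in the axil of a leaf that can stay dormant or grow into a branch, and many genes of metabolism and growth differ between those states. Genes whose transcript level stays level through such a change are of use as internal references, against which other transcripts are measured, and are often sought among genes of basic cell functions such as the cytoskeleton, protein synthesis and protein turnover. The table holds identifiers without names, and 0 of 17770 matched the RefSeq cucumber gene table of 23999 genes (assembly Cucumber_9930_V3). No role, tissue marker or sequence was assigned to any gene, so neither the commonly used reference genes nor CsBRC1 itself were analysed here, and the tissue label was not checked by markers. In whole buds a lower value can mean fewer cells of a type or less RNA per cell, which cannot be told apart.

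The values are counts scaled to the library, called CPM in the table, and they had the form of TMM-scaled CPM (trimmed mean of M-values, a scaling that centres the libraries on genes of average change). Libraries held between 26912976 and 32385236 recovered reads, and 1 read was worth 0.028 to 0.0392. WT 2 stood furthest from the others. It gave the highest or the lowest of the 4 values in 75.1% of the well-expressed genes, against 29.7% for WT 1, 47% for CsBRC1-RNAi 1 and 48.2% for CsBRC1-RNAi 2. Between the CsBRC1-RNAi libraries 61.5% of the well-expressed genes had values within 15%, meaning that the larger was at most 15% above the smaller, and between the WT libraries 33.9%. The lowest shares, 17.9% and 18.5%, were those of WT 2 with CsBRC1-RNAi 1 and 2.

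The limit of 15% took the lower edge of a wide range. Over all well-expressed genes the median spread was 74.2%, with quartiles of 38.1% and 142%. In the steady genes the spread ran from 1.71% to 14.99%, with a median of 11.6% and quartiles of 9.28% and 13.4%. Most steady genes lay near the limit: 158 had a spread above 10%, 84 a spread of at most 10%, and 10 a spread of at most 5%. The limit did not fall in a gap between genes, as the last gene inside had a spread of 14.99% and the first outside 15.03%. At a limit of 20% the rule found 446 genes, a count that can only rise as the limit loosens.

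**Figure D1:**
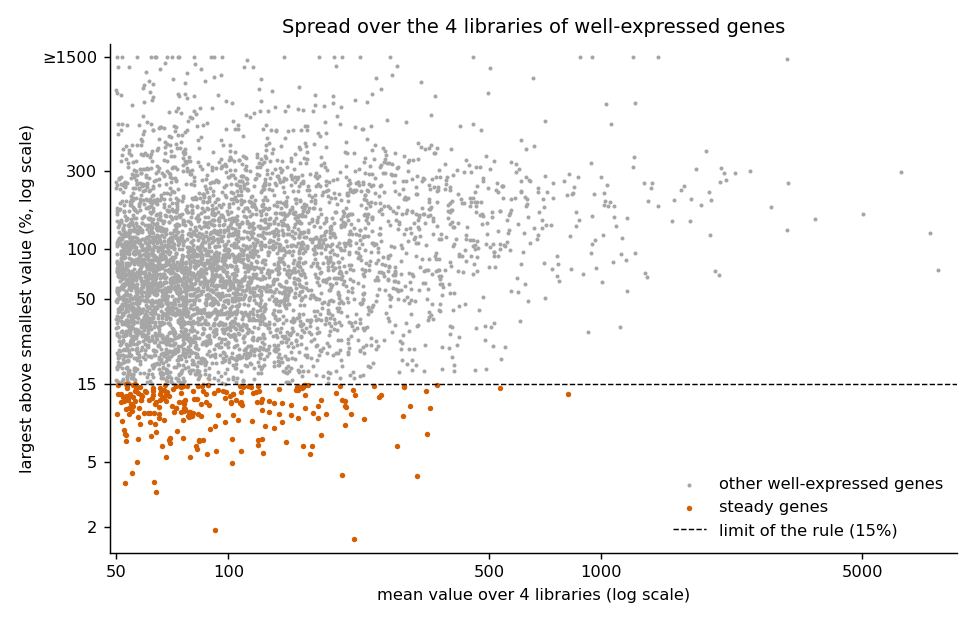
Percentage by which the largest of the 4 values lay above the smallest (vertical, log scale) against the mean value over the 4 libraries (horizontal, log scale) for the 5057 well-expressed genes, with 1 point a gene, and the 24 genes at 1500% or more drawn at the top edge. The 242 steady genes (orange) lie under the dashed limit of 15%, without a gap to the other genes (grey), and none lies at a mean of 1000 or more.

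Csa6G450380, on chromosome 6 by the digit in its identifier, had the smallest spread of the values as deposited. Its values were 218.1 and 217.3 in WT 1 and WT 2 and 214.4 and 217.1 in CsBRC1-RNAi 1 and 2, a mean of 217 ± 1.6 (SD, n = 4) and a spread of 1.71%. Both CsBRC1-RNAi values lay below both WT values, so its groups did not overlap. The lowest value was that of CsBRC1-RNAi 1, and the other CsBRC1-RNAi library was close to both WT libraries. Its spread was 1.2% by median of ratios, but 23.5% after quantile normalization and 27.4% with scaling to the table total, so that it met the limit under only the first of these. Csa5G591760 followed, with 91.1 and 92.8 in WT and 92.1 and 92.3 in CsBRC1-RNAi, a mean of 92.1 ± 0.741 and a spread of 1.94%. Here the CsBRC1-RNAi values lay between those of the WT libraries. Csa1G554570 had values of 63.3 and 64.2 in WT and 65.2 and 63.1 in CsBRC1-RNAi, with a spread of 3.31%, and its groups overlapped as well. Csa2G013230 had 53.9 and 52.3 in WT and 52.4 and 52 in CsBRC1-RNAi, a spread of 3.74%. Csa1G701220 had 62.6 and 64.3 in WT and 62 and 64.3 in CsBRC1-RNAi, a spread of 3.8%, and in both genes the groups overlapped. In each of these 5 genes the coefficient of variation over the 4 libraries (CV, the SD as a percentage of the mean) was below the CV that counting reads alone gives, 0.736% against 1.25% for Csa6G450380 and 0.805% against 1.92% for Csa5G591760. Their differences between libraries were therefore not detectable at this depth. They are the extreme of 5057 genes ranked by this measure, so such small values may not recur in other libraries. The other 4 genes stayed within the limit of 15% after quantile normalization, at 3.26% to 8.12%, and with scaling to the table total had spreads of 21.7% to 28.9%.

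The remaining chromosome digits had less steady leaders. On chromosome 3 the smallest spread was that of Csa3G182780, 4.99%, with 57.9 and 57.6 in WT and 55.2 and 56.1 in CsBRC1-RNAi. Both CsBRC1-RNAi values lay below both WT values. On chromosome 7 it was Csa7G368130, with 76.4 and 79.9 in WT and 80.5 and 78.4 in CsBRC1-RNAi, a spread of 5.36%. On chromosome 4 it was Csa4G645960, with 162 and 169 in WT and 170 and 160 in CsBRC1-RNAi, a spread of 5.65%. In these last 2 genes the groups overlapped.

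Levels of the steady genes rested in part on the floor of 50, as floors of 20 and 100 gave medians of 53 and 154. Their mean values ran from 50.2 to 814, with a median of 82.3 and quartiles of 63.6 and 127, while all well-expressed genes ran up to 7969 with a median of 91.6 and quartiles of 65.7 and 150. Of the 2792 genes between 50 and 100, 148 (5.3%) were steady. The share was 4.67% (68 of 1456) between 100 and 200, 3.84% (24 of 625) between 200 and 500 and 1.64% (2 of 122) between 500 and 1000. Above 1000 it was 0 of 62 genes. This allows a share of up to 4.84% if genes are taken as independent of each other, which was not tested. The spread of all genes in a class went the other way from counting error. The median CV rose from 23% in the lowest class to 50.5% in the highest, while the CV that counting alone gives fell from 2.24% to 0.501%.

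The most abundant steady gene was Csa3G689280, with values of 781 and 799 in WT and 883 and 794 in CsBRC1-RNAi, a mean of 814 ± 46.3 (SD, n = 4). CsBRC1-RNAi 1 was its high library, and CsBRC1-RNAi 2 lay between the WT values. Csa6G106180 had 505 and 518 in WT and 577 and 540 in CsBRC1-RNAi, with a spread of 14.3% and both CsBRC1-RNAi values above both WT values. Csa7G363060 had 356 and 388 in WT and 338 and 363 in CsBRC1-RNAi, a spread of 14.9% with overlapping groups. Csa6G516640 had 338 and 373 in WT and 339 and 337 in CsBRC1-RNAi, with WT 2 alone above the rest. Csa6G490850 had 350 and 328 in WT and 333 and 352 in CsBRC1-RNAi, a spread of 7.4%. That was the smallest of these 5 as deposited, but the order turned with the scaling. With scaling to the table total its spread was 31.7%, against 9.6% for Csa6G106180 and 10.9% for Csa3G689280, and after quantile normalization all 5 were over the limit, at 27.4% to 51.5%. Together the 242 genes took 2.98% and 2.84% of the summed values of WT 1 and WT 2 and 2.39% and 2.62% of those of CsBRC1-RNAi 1 and 2. Their summed value was nearly the same in each library, between 26712 and 27089, while the sums of all values in the table ran from 905783 to 1134691. Close sums follow from the choice, as the rule held the values of each member within 15%. The shares of the summed values then mostly restate the sums of all values.

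No library stood apart within the steady genes. The median deviation from a gene's own mean was -0.032% in WT 1, -0.058% in WT 2, -0.32% in CsBRC1-RNAi 1 and -1.05% in CsBRC1-RNAi 2, and the median size of that deviation was between 3.21% and 3.69% in each library. The furthest deviations were 10.1% and -9.41%, both in CsBRC1-RNAi 2. That library was most often the lowest, in 76 of the 242 genes, and least often the highest, in 47. WT 2 was the highest in 69 genes and the lowest in 65, so that it was at an end in 55.4% of the steady genes, WT 1 in 47.5%, CsBRC1-RNAi 1 in 46.3% and CsBRC1-RNAi 2 in 50.8%. The rule keeps the values of a member close together, so these counts describe the members and not the libraries.

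**Figure D2:**
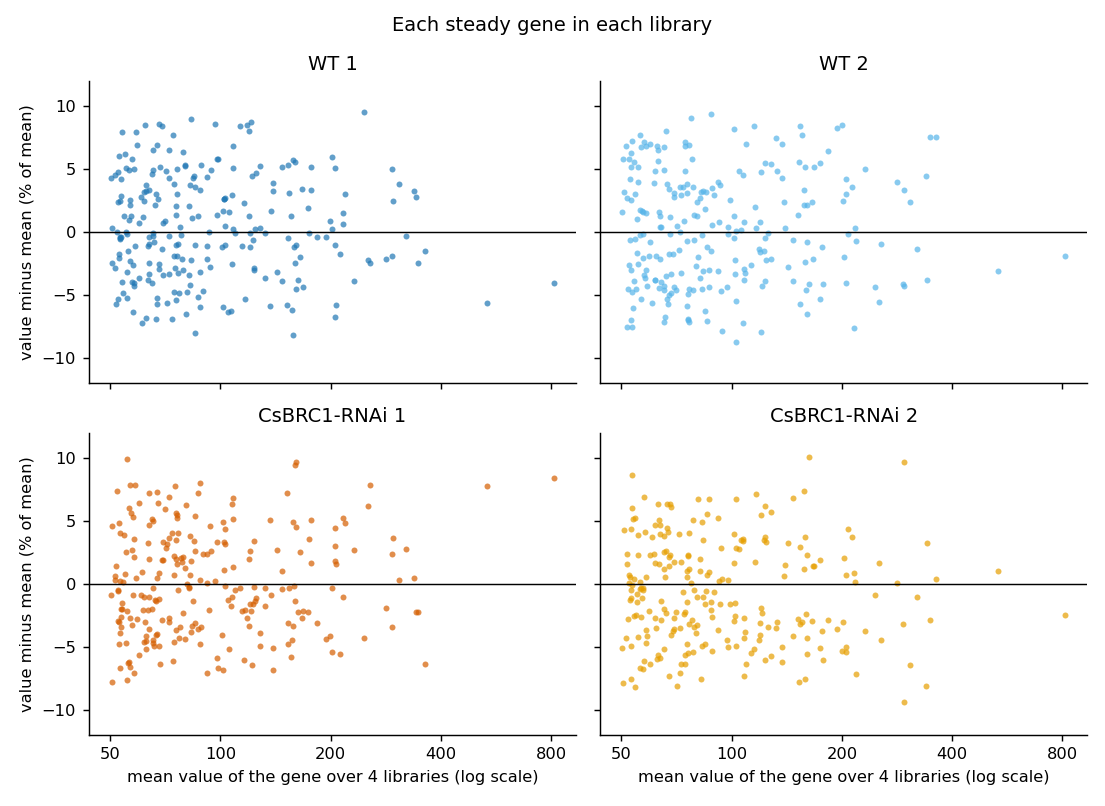
Difference of each steady gene's value from its own mean over the 4 libraries, as a percentage of that mean (vertical), against the mean (horizontal, log scale), with 1 panel a library and 1 point a gene. In all 4 panels the 242 points lie on both sides of 0 and none lies outside -9.41% to 10.1%.

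Steadiness was not exact. A steady gene had between 1191 and 27939 reads per library, with a median of 2474.5, and counting alone gives a CV of 0.647% to 2.6%. The CV over the 4 libraries ran from 0.736% to 7.24%, with a median of 4.94%. In 8 of the 242 genes it was at or below the counting CV, in 65 at or below 2 times it, and the median gene varied 2.39 times as much as counting alone gives. Over all well-expressed genes this multiple had a median of 13.3, and the 8 genes at or below the counting CV were all steady. That all 8 were steady follows from the rule, as the counting CV of a well-expressed gene was at most 2.69%. The 4 values of a gene with a CV that small always lie within the limit of the rule. Among the steady genes the multiple was larger where reads were many: its median was 2.13 at levels of 50 to 100, 3.04 at 100 to 200 and 4.18 at 200 to 500, and Csa3G689280, the most abundant, had the highest value, 8.79. The median CV itself was 4.92%, 5.03% and 4.89% in these classes, as the limit of the rule is the same at each level.

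**Figure D3:**
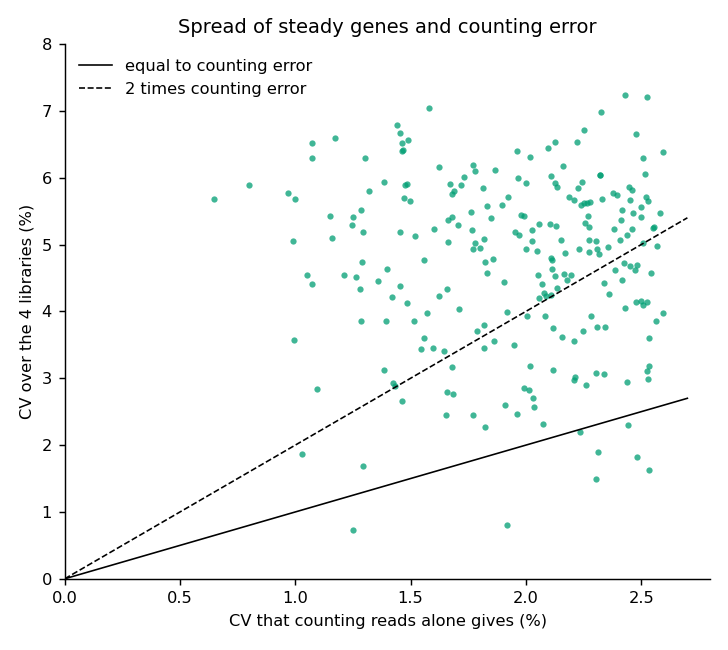
Coefficient of variation of each steady gene over the 4 libraries (vertical) against the coefficient of variation that counting its reads alone gives (horizontal), both in percent, with 1 point a gene. Of the 242 genes 8 lie on or under the solid line, where both are equal, and 65 on or under the dashed line at 2 times the counting error.

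Between the genotypes the mean of the CsBRC1-RNAi values was higher than the WT mean in 105 steady genes and lower in 137. The log2 ratio of the means ran from -0.18 to 0.16, with a median of -0.01 and quartiles of -0.07 and 0.05. Its size had a median of 0.06, against 0.5 over all well-expressed genes. The genotypes had separate ranges of values in 94 steady genes (38.8%), of which 39 were higher and 55 lower in CsBRC1-RNAi. Over the 17726 genes tested 67.1% did not overlap, 33.3% with higher and 33.7% with lower values in CsBRC1-RNAi. All 242 steady genes passed the filter of the test on low values, and limma on log2(value + 1) called 0 of them at an adjusted p under 0.05, where it called 3.61% of all genes. At an unadjusted p under 0.05 limma called 0 of the 242 and 32.5% of all genes. On the recovered reads edgeR and DESeq2 called 0 of the 242 as well, against 2.38% and 22.1% of all genes. The rule used the same contrast, so nothing is read from these counts. With 2 libraries a group the fitted difference of a steady gene had a standard error of 0.17 to 0.3 on the log2 scale. The 95% interval of the difference reached a median of 0.44 (log2) to either side, a fold of 1.36. This width rests mostly on the spread of other genes of the same level, which the fit shares, and describes the precision of the fit. As the rule held the differences of the members small, it sets no bound on an effect of genotype.

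Csa5G175850 was the last gene inside the limit and had the most negative log2 ratio of the genotypes among the 242, with 56.2 and 56.3 in WT and 50.5 and 49 in CsBRC1-RNAi, a log2 ratio of -0.18. Its groups did not overlap, and both WT values lay above both CsBRC1-RNAi values. Csa1G031190, the next inside, had 53.1 and 57.2 in WT and 49.7 and 53.3 in CsBRC1-RNAi, and its groups overlapped. The first genes outside were Csa7G070220, with a spread of 15.03% and 78.9 and 85.4 in WT and 90.8 and 87.1 in CsBRC1-RNAi, and Csa1G597100, with a spread of 15.05% and 64.9 and 72.5 in WT and 73.3 and 74.6 in CsBRC1-RNAi. In both the CsBRC1-RNAi values were the higher ones. At the limit on the level, Csa7G450800 with a mean of 50.2 and Csa1G007870 with a mean of 50.6 were just inside. Csa1G589080 and Csa6G014620, with means of 49.8 and 49.6 and spreads of 3.43% and 13.3%, were just outside.

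A library that took no part in the choice gave a value that the rule had not held, apart from the scaling, which was computed on all 4 libraries. The same limits were set on 3 libraries at a time and the remaining library was read. The values of genes chosen without WT 2 stayed close in WT 2 less often than in the other libraries. Of 773 genes steady in the other 3, 242 (31.3%) still met the limit with WT 2 added, and 339 (43.9%) had a WT 2 value within 15% of the mean of the other 3. The share that still met the limit was 50% (242 of 484) with WT 1 added, 56.1% (242 of 431) with CsBRC1-RNAi 1 and 54.5% (241 of 442) with CsBRC1-RNAi 2. Each of these sets differs slightly from the 242 genes, since the mean of 50 was taken over 3 libraries. Meeting the limit with the library added is the rule on all 4 values again. The shares that still met it therefore mostly reflect how many genes the 3 libraries chose. The distance of the added value from the mean of the other 3 is not held in this way.

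The shares were also set beside those of well-expressed genes that were not steady in the 3 libraries. The 3 values of such genes lie further apart, so their mean is itself a less certain reference, and a lower share near it follows in part from the choice. A value within 15% of the mean of the other 3 was found in 67.4% against 41.8% of genes in WT 1, 43.9% against 18.4% in WT 2, 71.7% against 28.1% in CsBRC1-RNAi 1 and 74% against 29.9% in CsBRC1-RNAi 2, where the second share is that of well-expressed genes not steady in the other 3. A value at least 2-fold away was found in 2 of 484 genes (0.413%) against 6.67% in WT 1, in 12 of 773 (1.55%) against 23.7% in WT 2, in 5 of 431 (1.16%) against 10.7% in CsBRC1-RNAi 1 and in 0 of 442 against 6.06% in CsBRC1-RNAi 2. No p-value is given for these shares, since genes are no replicates of a condition.

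**Figure D4:**
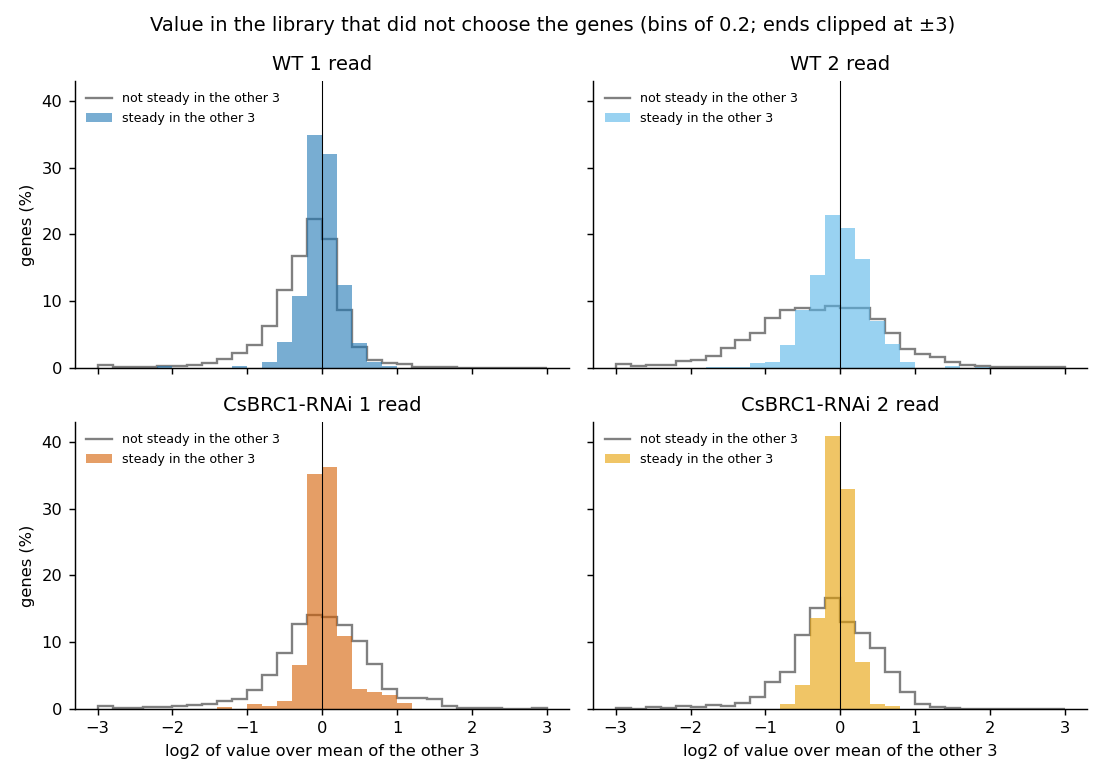
Share of genes (vertical, percent) by the log2 ratio of the value in 1 library to the mean of the other 3 (horizontal, bins of 0.2, ends clipped at 3), with 1 panel for each library read. Filled bars are genes steady in the other 3 libraries and the grey outline is well-expressed genes that were not. The filled bars are narrower in every panel, and widest in WT 2, where 43.9% of the chosen genes lay within 15% of the mean of the other 3.

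Genes steady within a single genotype were also read in the other. Of 1700 genes with a WT mean of at least 50 and WT values within 15%, the CsBRC1-RNAi mean lay within 15% of the WT mean in 583 (34.3%) and at least 2-fold away in 153 (9%). Among the 3285 genes whose WT values were further apart, these shares were 16% and 23.3%, where the wider WT values again make the reference less certain. Chosen on CsBRC1-RNAi in the same way, 766 of 3014 genes (25.4%) had a WT mean within 15% and 413 (13.7%) a WT mean at least 2-fold away, against 17.4% and 27.5% of the other 1982 genes. Of the 1700 genes, 242 were steady over all 4 libraries, and of the 3014, 238.

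By the digit in the identifier, read as the chromosome by the naming convention and not checked against an assembly, steady genes were found on all 7 chromosomes in nearly the proportions of the well-expressed genes. Chromosome 6 had the highest share, 5.45% (45 of 826), followed by chromosome 1 with 5.28% (38 of 720), chromosome 2 with 5% (33 of 660), chromosome 3 with 4.86% (52 of 1069), chromosome 5 with 4.27% (27 of 632) and chromosome 7 with 4.14% (21 of 507). Chromosome 4 had the lowest, 3.97% (25 of 629). Identifiers with UN in place of a digit gave 1 steady gene of 14. Along the numbering, with each chromosome cut into 5 equal parts, the share was 4.53%, 4.75%, 4.68% and 4.21% in the first 4 parts and 5.73% (57 of 995) in the last. No test was made of these shares.

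Steady genes lay beside each other about as often as their overall share gives. In 4 pairs of successive genes of the table both members were steady, and no run was longer than 2 genes. Of 160 well-expressed genes next to a steady gene, 8 (5%) were themselves steady, against 4.77% of the 4883 well-expressed genes that were not next to one. Between successive steady genes of a chromosome the median distance was 49.5 steps in the table, and the longest 380. The most abundant pair was Csa6G105680 and Csa6G106180, with means of 321 and 535. The pairs Csa1G108800 and Csa1G108810, Csa2G033260 and Csa2G033270, and Csa7G075640 and Csa7G075650 had successive identifiers, and the means within these pairs were 68.1 and 53, 52.5 and 174, and 79.9 and 125. These pairs were picked after their values were seen.

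Which genes counted as steady depended on how the libraries were scaled. With median-of-ratios scaling 235 genes met the rule, of which 231 were among the 242. Its factors were nearly proportional to the library sizes of the deposited scaling, so it nearly repeats that scaling and is no separate check. After quantile normalization it was 196 genes, 129 of them among the 242 (53.3%). With each library scaled to the total of its recovered reads in the table, 131 genes met the rule, and only 18 of these were among the 242 (7.44%). Under that scaling the 242 genes had a median spread of 27.4%. Their median log2 ratio of CsBRC1-RNAi to WT was then -0.23, against -0.13 for all well-expressed genes, and as deposited these medians were -0.01 and 0.08. The difference between both medians was -0.09 under either scaling. This had to be nearly so, as such a scaling multiplies all genes of a library alike. The values are relative, and no spiked-in standard is described in the labels, so steadiness here means that a gene kept its place relative to the scaling used.

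Of the 242 genes, 123 (50.8%) met the rule as deposited, after quantile normalization and by median of ratios, and 11 of these also under the scaling to the table total. Csa4G651820 had the smallest deposited spread of the 11, 10.2%, with 67.6 and 70.6 in WT and 73.9 and 74.5 in CsBRC1-RNAi. It lay higher in both CsBRC1-RNAi libraries. Csa1G600780 followed with 10.8%, from 69.9 and 72.2 in WT and 77.3 and 69.7 in CsBRC1-RNAi, with overlapping groups. Both were named after their values had been seen. In all 11 the deposited CsBRC1-RNAi mean was above the WT mean. This direction follows in large part from the choice. Scaling to the table total lowered CsBRC1-RNAi relative to WT, so meeting the limit under both scalings favours genes that were higher in CsBRC1-RNAi as deposited. Of the 17 steady genes named by the rule for names, 16 stayed within 15% by median of ratios, 9 after quantile normalization and 2 with scaling to the table total.

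**Figure D5:**
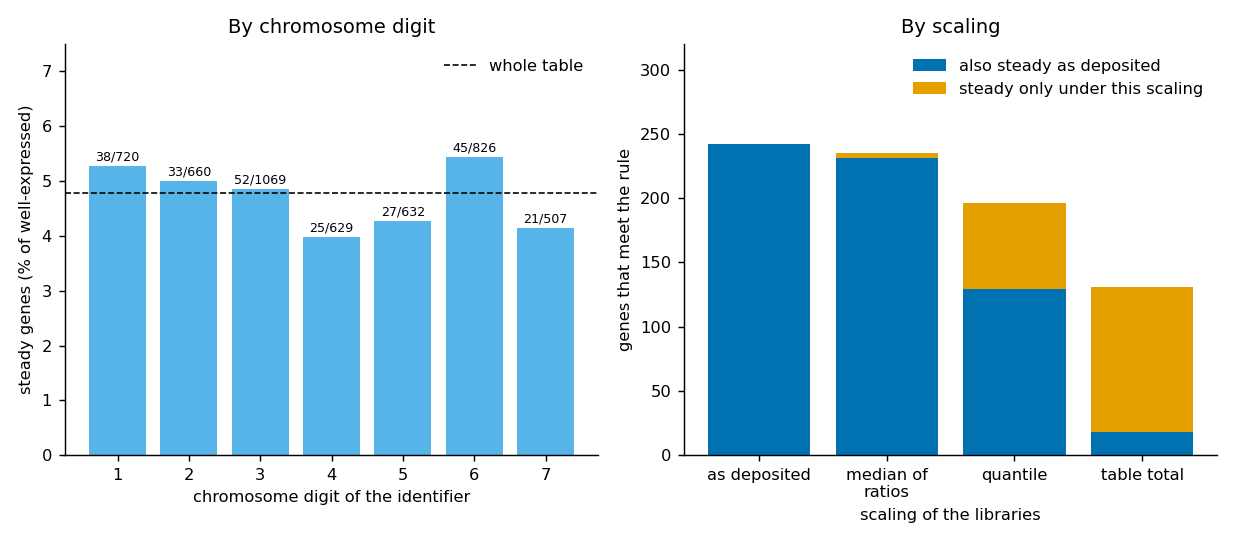
Left, steady genes as a percentage of the well-expressed genes for each chromosome digit of the identifier, with the counts above the bars and the share over the whole table, 4.79%, as a dashed line. Right, number of genes that met the rule under 4 scalings of the libraries, with the part also steady as deposited in blue, which went from 231 of 235 with median-of-ratios scaling to 18 of 131 with scaling to the table total.

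The number of steady genes also rose when any library was left out, to 484 without WT 1, 773 without WT 2, 431 without CsBRC1-RNAi 1 and 442 without CsBRC1-RNAi 2, as a rule on 3 values is easier to meet. The rise was largest without WT 2, the library at an end of the range in most well-expressed genes. The levels of the genes found were close to those of the 242, with medians between 81.4 and 83.7.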

How the data were processed

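RNA-seq was made from lateral buds of 2 WT and 2 CsBRC1-RNAi libraries. The submitters' processing notes name HISAT and HTSeq. Their versions, the strand setting, the build and the annotation were not given in the sources used. The authors deposited 1 normalised signal value per gene and library. Divided by the column's smallest value above 0, 100% of the values in each column came out whole (within 1e-06), as reads. The library sizes the values imply equalled to the read those of edgeR's TMM on these reads. The sum of recovered reads was 32385236, 26912976, 28917558 and 31050990 in WT 1, WT 2, CsBRC1-RNAi 1 and CsBRC1-RNAi 2. A count of 0 allows up to 3 reads, at most a value of 0.118; floors and counting errors cover counting error only.

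The counting CV is the square root of the mean of value times value of 1 read, over the mean. Genotypes were compared with limma 3.58.1 (R 4.3.3), without a block and with a prior variance that follows the level, on log2(value + 1). The 17726 genes that reached 1 in 2 or more libraries were tested, with Benjamini-Hochberg adjustment over all of them. It called 640 genes at 0.05. On recovered reads edgeR 4.0.16 (quasi-likelihood) called 422 and DESeq2 1.42.0 called 3917. The scripts were tested on simulated data. The members, lists and tests were chosen with earlier results of these data known. Genes named were the 5 of the smallest spread, the 5 of the highest mean, the steadiest on each chromosome digit and the 2 on each side of both limits; others named are said to be. Alternatives were other limits, scalings, pseudocounts, filters and tools, the replicate block and leaving out each library. Replicate 1 minus replicate 2 differences of both groups correlated by 0.038 across 17726 genes and no label marks a shared batch, so libraries were not paired. The gene lists on reference genes and cell types could not be used without names.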

Additional observations from a re-analysis of the deposited data

How the results depend on the processing

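The median ratio of the genes that met the rule is held by its limit under each alternative, so its small moves say nothing about stability. The median spread of the 242 genes themselves went from 11.6% to 11.4% by median of ratios, 14.7% after quantile normalization and 27.4% with scaling to the table total. The 242 steady genes became 131 with scaling to the table total, 84 and 446 with limits of 10% and 20%, 457 and 94 with mean levels of at least 20 and 100, and 124 with a CV of at most 5%, a limit chosen after the data were seen, as was leaving out libraries for the medians and chromosome shares. Their median level was 77.3 after quantile normalization and 53 and 154 with mean levels of at least 20 and 100. Leaving out a library gave 431 to 773 genes. The lowest and the highest share over the chromosome digits were 2.07% and 3.74% with scaling to the table total, 1.27% and 2.27% with a limit of 10%, 7.44% and 9.69% with 20%, and 7.58% to 12.2% and 9.4% to 17.5% without a library. The lowest was 2.43% with a mean level of at least 100. The chromosomes with these shares differed between settings. The share that met the limit in the library not used for the choice was, for WT 1, WT 2, CsBRC1-RNAi 1 and CsBRC1-RNAi 2, 38.3%, 27.6%, 33.2% and 44.3% with scaling to the table total, 35.3%, 21.1%, 39.4% and 41% with a limit of 10%, and 63%, 38.5%, 63.1% and 64.6% with 20%. After quantile normalization it was 44%, 27.4% and 48.5% in the first 3. WT 2 had the lowest share in each of these settings. These shares apply the rule to all 4 values again and mostly reflect how many genes 3 libraries chose. The cause of these shifts was not tested, apart from limits that admit more or fewer genes by construction.

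The 640 limma calls over all genes became 416 with a mean value of at least 5, 1561 with the replicate block, 422 with edgeR and 3917 with DESeq2. Leaving out a library gave 0 to 3531: 3531 without WT 1, 0 without WT 2 (4571 at an unadjusted p under 0.05), 63 without CsBRC1-RNAi 1 and 3 without CsBRC1-RNAi 2. Such a fit assumes that the lone library varies like the other group. None of the 242 steady genes was called in the fits on all 4 libraries. The rule used the same contrast, so nothing is read from this. Counting alone gives a CV of at most 2.6% in a steady gene. Whether depth limited the calls over all genes was not tested.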

Other observations

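Of the 5057 well-expressed genes, 1100 (21.8%) had values within 15% inside each genotype. In 650 of these the means of the genotypes were more than 15% apart, 290 with the higher mean in CsBRC1-RNAi and 360 in WT. A further 2010 genes (39.7%) were within the limit in CsBRC1-RNAi and not in WT, 614 (12.1%) in WT and not in CsBRC1-RNAi, and 1333 (26.4%) in neither. These counts are descriptions, as the limit was set on the same values. With scaling to the table total, 113 genes met the rule that did not meet it as deposited.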
